A study of Mus musculus with 48 samples.

Results

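The 10 genes described here encode the peroxisome proliferator-activated receptors (Pparg, Ppara and Ppard), their retinoid X receptor partners (Rxra, Rxrb and Rxrg) and 4 coregulators (Ppargc1a, Ppargc1b, Ncor1 and Nrip1). They were taken by gene name from the 29221 genes of the deposited mouse liver RNA-seq tables, and all 10 were found and tested in every comparison. The data came from whole livers of 48 adult mice whose ages the labels do not give. All mice carried a floxed Pparg gene and received an AAV8 virus with the hepatocyte-directed TBG promoter after 16 weeks on diet, carrying Cre in the labelled knockouts and null in the controls. Females were kept on the low fat (LF) diet for 34 weeks, the high fat (HF) diet for 34 weeks, or the HF diet for 18 weeks and then a fat-, cholesterol- and fructose-rich diet (HFCF) for 16 weeks. Males were kept on the HF or the HFCF schedule only. Each of the 6 female groups held 4 livers and each of the 4 male groups held 6, and the labels describe the libraries of a group as separate mice.

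PPARs are ligand-activated transcription factors that bind fatty acids and their derivatives, and they bind DNA as heterodimers with an RXR. In liver, PPARα drives fatty acid oxidation and ketone body production during fasting, whereas PPARγ is best known from adipose tissue, is low in normal hepatocytes and promotes lipid droplet storage when it is induced in fatty liver. Coactivators of the PGC-1 family raise the output of these receptors, and the corepressors NCoR1 and RIP140 (the product of Nrip1) recruit histone deacetylases and lower it.

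Reads on genes ranged from 15338239 to 22072884 per library. Hepatocyte markers were high throughout, with albumin (Alb) at no less than 26613 CPM (the read count scaled to library size). The adipocyte markers Adipoq, Retn and Plin1 did not exceed 0.134 CPM in any library. Some libraries stood apart in their balance of long and short genes. The slope of a library's log2 deviation from the median library per doubling of gene length, over 10357 genes averaging 5 CPM or more, ran from -0.26 to 0.08. The lowest slope was in replicate 1 of the female HFCF labelled knockouts, followed by replicate 4 (-0.13) and replicate 1 (-0.11) of the female LF labelled knockouts. RNA came from whole tissue, so fewer cells of a type and less RNA per cell cannot be told apart.

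Per kilobase of gene length, Rxra was the most abundant member, with a median over the 48 libraries of 100.3 CPM per kb. Ppara followed at 52.2 CPM per kb and was below Rxra in 48 of 48 libraries. Rxrb (11.4 CPM per kb), Ncor1 (10.5 CPM per kb) and Pparg (10.5 CPM per kb) formed the next level, and neighbours in that order did not separate: Rxrb was above Ncor1 in 34 libraries and Ncor1 above Pparg in 24. Rxrg, the RXR form otherwise found mainly in muscle and brain, had a median of 4.18 CPM per kb and lay below Pparg in 41 libraries. The least abundant members were Ppargc1b (2.21 CPM per kb), Ppargc1a (2.15), Nrip1 (2.02) and Ppard (1.69). Ppargc1b was above Ppargc1a in 25 of 48 libraries and Ppargc1a above Nrip1 in 26, so the order of these 3 did not hold from library to library. The ratio of the highest to the lowest group mean was 5.39 for Pparg and between 1.24 (Rxrb) and 1.97 (Ppara) for the other 9 members.

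**Figure D1:**
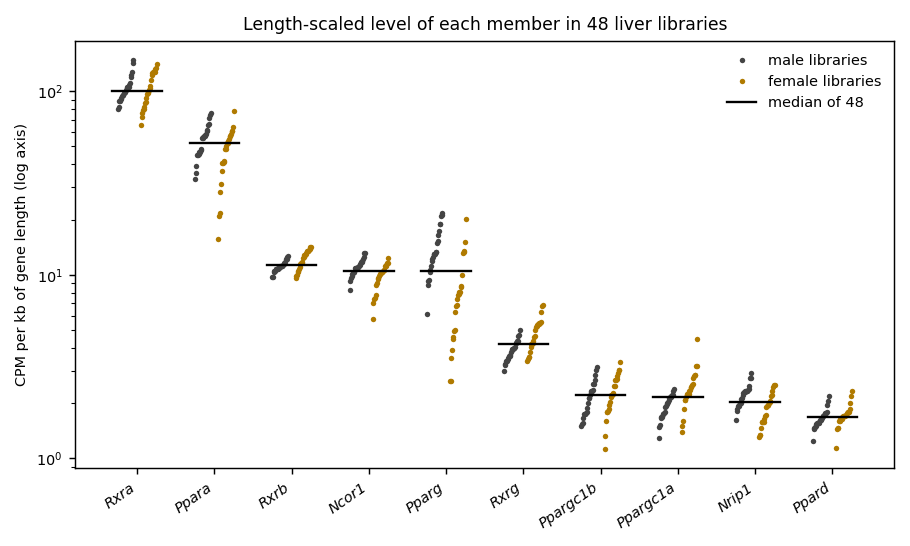
Length-scaled levels of the 10 members on a logarithmic axis (CPM per kb of gene length), with 1 point per library, male libraries in grey, female libraries in brown and a bar at the median of 48. Rxra lies at the top with a median of 100.3 CPM per kb, and the Pparg points spread over the widest range of the 10.

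Pparg (ENSMUSG00000000440) lies on the plus strand at chr6:115360951-115490399 of GRCm38. Its count sums 7 annotated transcripts, so its starts cannot be told apart in these data. Stretches just before 3 RefSeq starts of Pparg (GRCm38.p6, plus strand) are shown because Pparg was the member whose level varied most between groups. The last is that of the longer PPARγ2 form, the form known from fat and fatty liver. Capitals mark exact matches of the nuclear receptor half-site AGGTCA or the TATA box letters TATAAA on either strand. TTTATA is thus TATAAA read on the minus strand. The bases TATATAAG, which overlap that match on the plus strand before start 2, were not among the letters searched.
Pparg start 1, chr6:115361114-115361143: tcAGGTCAgagtcgccccgggccacgcggc
Pparg start 2, chr6:115362319-115362348: tTTTATAtaagggacgcgaggAGGTCAaga
Pparg start 3, chr6:115421816-115422065: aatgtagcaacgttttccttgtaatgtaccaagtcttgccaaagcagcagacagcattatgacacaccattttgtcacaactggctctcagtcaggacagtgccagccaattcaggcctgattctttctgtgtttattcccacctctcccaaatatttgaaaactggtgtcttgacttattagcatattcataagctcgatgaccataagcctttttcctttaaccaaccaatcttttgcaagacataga
The windows of starts 1 and 2 hold a half-site close to the start, and that of start 3 holds none of the motifs searched in its 250 bases. AGGTCA occurred in 14.0% of the 32851 RefSeq windows of that length and TATAAA in 12.4%. The element bound by PPAR-RXR pairs, AGGTCANAGGTCA, contains the half-site at either end, occurred in 0.033% of all windows and was found in 0 of the 16 windows of the members. A match describes the sequence only.

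The labelled knockouts did not have lower Pparg than controls of the same sex and diet in any of the 5 comparisons, and on the HFCF diet it was higher in both sexes. In HFCF males the controls ran from 26.0 to 39.1 CPM with a median of 31.8, and the labelled knockouts from 48.4 to 63.7 CPM with a median of 55.9. All 6 labelled knockouts lay above all 6 controls. Pparg rose by a log2 fold change of 0.81 ± 0.11 (SE, n = 6 and 6, edgeR adjusted p = 0.000805), and an exact 2-sided permutation test of the log2 CPM gave p = 0.00216, the smallest it can give (0.0108 adjusted over the 5 comparisons). In HFCF females the controls were at 23.9, 23.9, 21.7 and 25.2 CPM and the labelled knockouts at 39.1, 59.3, 44.8 and 39.95 CPM. These groups did not overlap either. The log2 fold change was 0.97 ± 0.13 (SE, n = 4 and 4, edgeR adjusted p = 0.0422; exact permutation p = 0.0286, the smallest possible, 0.0714 adjusted over 5). Leaving out any library other than labelled knockout 1 ended the call in these females, with edgeR adjusted p-values up to 0.220. The count covers the whole gene, and which exons are floxed is not given in the sources used here, so the sum does not show whether the floxed exons were lost.

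On the HF and LF diets the Pparg groups overlapped. HF male controls ran from 27.7 to 38.1 CPM with a median of 35.6, and labelled knockouts from 18.0 to 61.6 CPM with a median of 41.8. The lowest labelled knockout, replicate 6, lay below every control and the other 5 lay above every control. The log2 fold change was 0.26 ± 0.19 (SE, n = 6 and 6, edgeR adjusted p = 0.380). The difference in mean log2 CPM was 0.18 with all livers and 0.40 without that replicate, with exact permutation p-values of 0.496 and 0.0108 after adjustment over the 5 comparisons. With the other 5 above every control, leaving out replicate 6 fixed the unadjusted p at the smallest this test can give. The second value is therefore no separate support for a difference. HF female controls were at 23.2, 19.9, 18.5 and 13.3 CPM and labelled knockouts at 25.6, 29.5, 38.9 and 20.3 CPM, a log2 fold change of 0.64 ± 0.22 (SE, n = 4 and 4) that missed the threshold (edgeR adjusted p = 0.584; exact permutation p = 0.0571). LF female controls were at 7.84, 7.80, 11.4 and 14.7 CPM and labelled knockouts at 23.0, 14.6, 13.6 and 10.4 CPM (log2 fold change 0.57 ± 0.26, SE, edgeR adjusted p = 0.9996). Whether the difference was larger on HFCF than on HF was tested directly, and the interaction was 0.53 ± 0.24 in males (SE, edgeR adjusted p = 0.246) and 0.34 ± 0.27 in females (edgeR adjusted p = 0.958). The interaction of labelled knockout with sex on HFCF was -0.16 ± 0.17 (SE, edgeR adjusted p = 0.783).

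**Figure D2:**
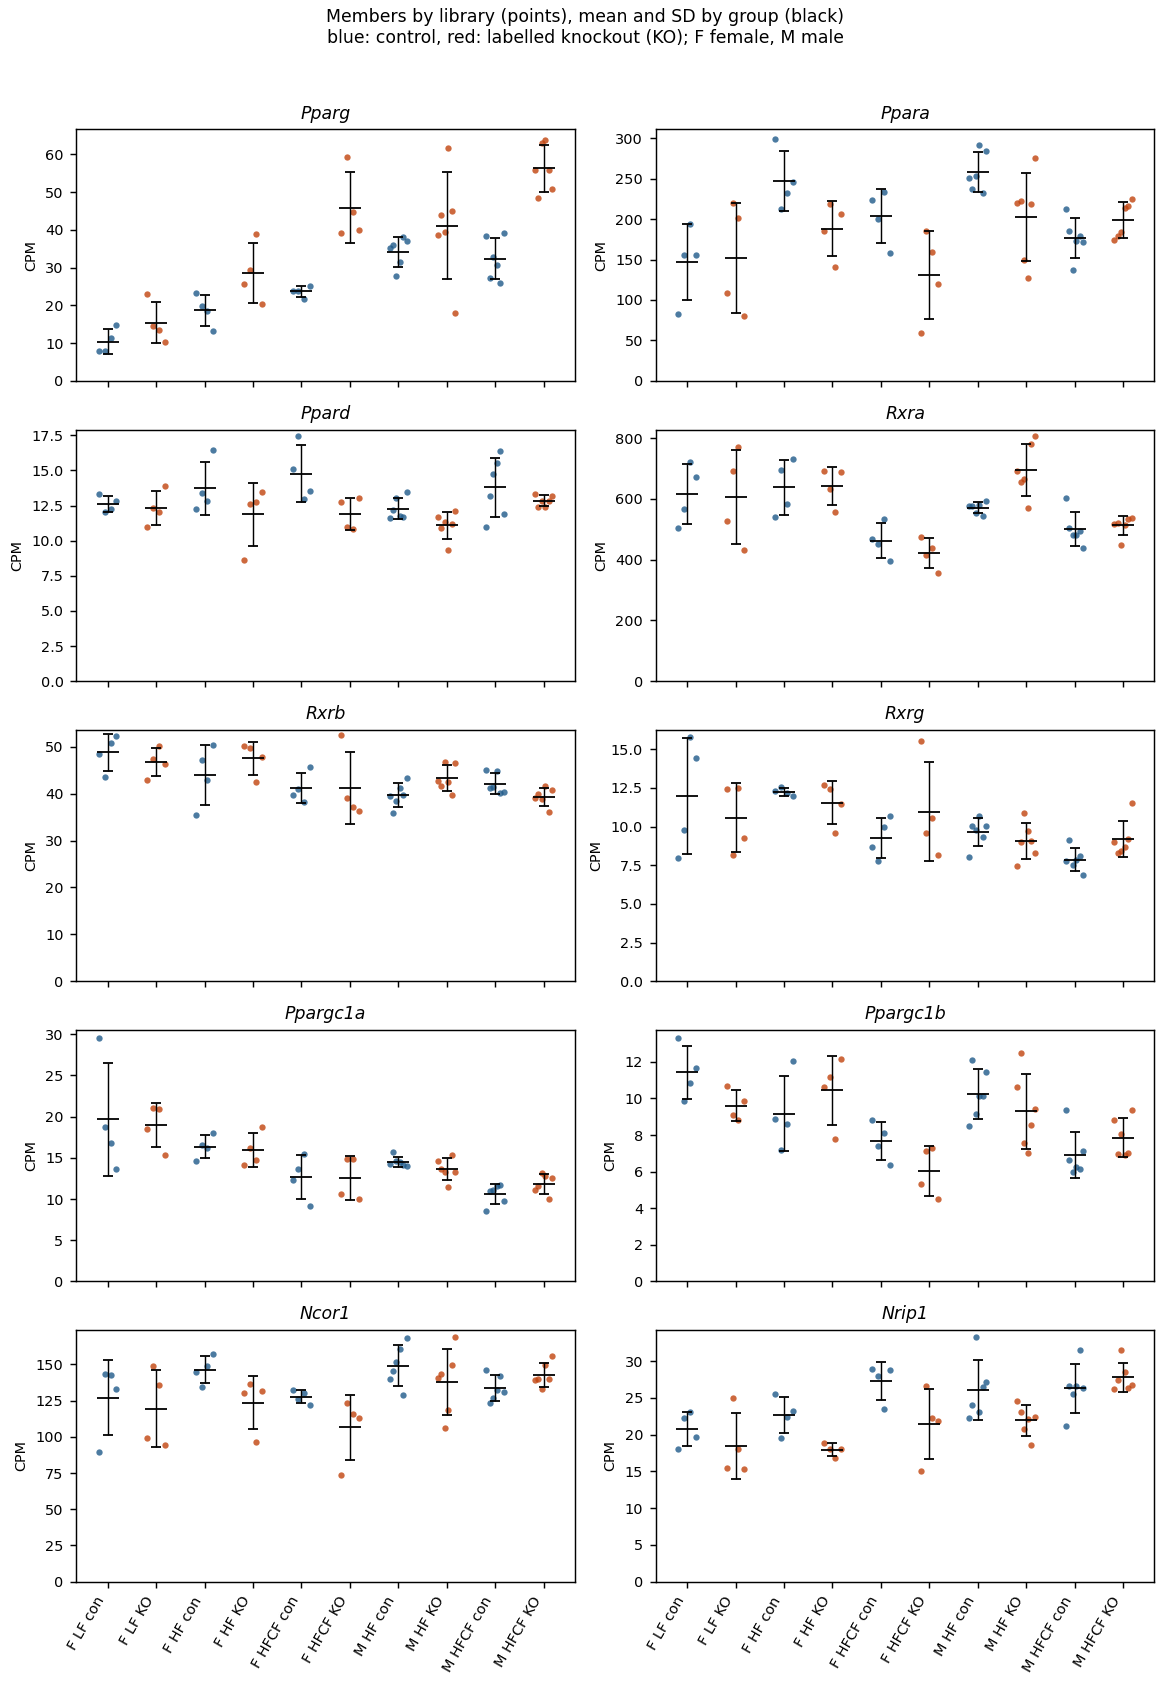
Level of each member in CPM (linear axes from 0) by group, with 1 point per liver, blue for controls (con) and red for labelled knockouts (KO), F for female and M for male, and black bars for the group mean and SD. For Pparg the 6 male HFCF labelled knockouts, between 48.4 and 63.7 CPM, lie above all 6 male HFCF controls.

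Pparg was higher in females on the richer diets. Control females had a mean of 10.4 ± 3.3 CPM on LF (SD, n = 4), 18.7 ± 4.1 CPM on HF and 23.7 ± 1.5 CPM on HFCF, and all 4 HFCF livers lay above all 4 LF livers. Pparg rose on HFCF against LF by a log2 fold change of 1.17 ± 0.18 in control females (SE, edgeR adjusted p = 0.00148) and by 1.60 ± 0.23 in labelled-knockout females (edgeR adjusted p = 0.00276), and both calls held with any 1 library left out. The HF against LF differences, 0.84 ± 0.23 in control and 0.90 ± 0.26 in labelled-knockout females (SE), missed the threshold (edgeR adjusted p = 0.127 and 0.159). The authors' deposited table for the same pairs lists adjusted p-values of 0.0238 and 0.0253 for them. In control males, HFCF (32.3 ± 5.5 CPM, SD, n = 6) and HF (34.2 ± 3.9 CPM) differed by less than the spread between livers, with a log2 fold change of -0.07. In labelled-knockout females the HFCF livers, from 39.1 to 59.3 CPM, lay above the HF livers, from 20.3 to 38.9 CPM, but the log2 fold change of 0.68 was not called by edgeR, whereas the authors' deposited table lists an adjusted p of 0.0178. The interaction of the HFCF against HF contrast with sex in controls was -0.42 ± 0.19 (SE), with an edgeR adjusted p of 0.278, so the sexes were not shown to differ in their response.

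Pparg was higher in males than in females among HF controls. The 6 males, from 27.7 to 38.1 CPM, lay above the 4 females, from 13.3 to 23.2 CPM, and the log2 fold change was 0.87 ± 0.14 (SE, edgeR adjusted p = 0.00182). The call held with any 1 library left out. Among HFCF controls the groups did not overlap (26.0 to 39.1 CPM in males, 21.7 to 25.2 CPM in females), but the log2 fold change of 0.45 did not pass the test. The animal numbers of males and females in the labels come from separate ranges, so sex and that range cannot be told apart. The adipocyte marker list moved with this difference among HF controls: 2 of its 3 testable genes were higher in males, with a summed level of 28.5 to 36.2 CPM against 18.0 to 20.7 CPM in females, while its defining markers Adipoq, Retn and Plin1 were at or near 0. Of 7 endothelial markers 3 were also higher in males (Lyve1 by 1.43, Pecam1 by 0.66 and Cdh5 by 0.53 on the log2 scale), with summed levels of 233 to 340 CPM against 184 to 260 CPM. Of 9 stellate cell markers 0 were called by edgeR (2 at an unadjusted p under 0.05), with summed levels of 583 to 857 CPM in HF control males and 257 to 1010 CPM in HF control females. Of 7 hepatocyte markers 1 was called lower in males (4 at an unadjusted p under 0.05), with a median log2 fold change of -0.41. Their summed levels did not overlap, at 59620 to 82970 CPM in males and 87780 to 104200 CPM in females. Of 5 blood cell markers 1 was called higher in males (Alas2, by 1.85 on the log2 scale). The part of these markers in the Pparg values was not tested.

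A list of 19 lipid storage and lipogenic genes associated with PPARγ was counted in the labelled-knockout comparisons. It was chosen with earlier results of these data known and is not independent support. Of all genes tested 18.5% were called in HF males and 2.21% in HFCF males. In HF males 14 of the 18 that could be tested fell and 0 rose, with a median log2 fold change of -0.86 against 0.00 over all genes tested. They included the lipid droplet proteins Cidec (-4.68, edgeR adjusted p = 1.14e-13) and Plin4 (-3.90, edgeR adjusted p = 2.96e-09). In HFCF males 10 of 18 fell, with a median of -0.73, while Pparg itself was higher. In HFCF females 3 of 16 fell, Clstn3 (-1.44), Cidec (-2.39) and Mogat1 (-1.64, an acylglycerol acyltransferase), each with an edgeR adjusted p from 0.0422 to 0.0494. In that comparison 8 genes were called in all, 19 without labelled knockout 1 and 0 to 2 without any other 1 library. In HF and LF females 0 of 15 passed the edgeR test in either direction, where 0% of all genes did. Medians were -0.53 and -0.17, and 7 and 1 of the list had an unadjusted p under 0.05. So did 1135 of 14128 genes tested in HF females and 355 of 14285 in LF females. Hepatocyte markers were also higher in the HF male labelled knockouts (6 of 7 called, summed level 86930 to 101800 CPM against 59620 to 82970 CPM in controls) and stellate cell markers lower (6 of 9 called, 396 to 528 CPM against 583 to 857 CPM). Blood cell markers were higher there (3 of 5 called, median log2 fold change 1.48), and labelled knockouts 3, 4 and 5 had summed levels of 806, 614 and 817 CPM against 166 to 247 CPM in controls. Of 11 macrophage markers 3 were lower and 1 higher, and of 7 endothelial markers 1 was lower. Their part in these results was not tested.

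The genes whose log2 CPM followed Pparg most closely over the 48 libraries were Tle3 (r = 0.825), Aqp4 (r = 0.799) and Snrpn (r = 0.795), among 12310 genes ranked. Within groups the same correlations, taken on deviations from group means, were 0.450, 0.373 and 0.331. The 48 points share groups and library composition, and these values are a description.

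Ppara (ENSMUSG00000022383, chr15:85734983-85802819, plus strand), the main regulator of hepatic fatty acid oxidation, fell on the HFCF diet in control males. The HF controls ran from 232 to 291 CPM with a median of 252, and the HFCF controls from 137 to 213 CPM with a median of 176. The 2 groups did not overlap. The log2 fold change was -0.54 ± 0.09 (SE, n = 6 and 6, edgeR adjusted p = 0.00183) and the call held with any 1 library left out. With all groups in one fit it was at the limit (edgeR adjusted p = 0.05). In labelled-knockout males the HF livers spread from 128 to 275 CPM (median 219) and the HFCF livers from 174 to 225 CPM (median 199), and the log2 fold change was -0.02. The interaction of diet and labelled knockout in males was 0.52 ± 0.19 (SE) and did not pass the test (edgeR adjusted p = 0.145). In females the change from HF to HFCF was -0.26 in controls and -0.51 in labelled knockouts, neither of them called.

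Control females had more Ppara on HF than on LF. The LF controls were at 82.9, 156, 194 and 155 CPM and the HF controls at 299, 212, 232 and 246 CPM. The groups did not overlap, but the log2 fold change of 0.75 ± 0.22 (SE, n = 4 and 4) missed the threshold with edgeR (adjusted p = 0.144). The authors' deposited table lists it at 0.75 with an adjusted p of 0.0275. In the labelled knockouts the same contrast was 0.31 ± 0.28 (SE), with LF livers at 108, 219, 201 and 80.4 CPM and HF livers at 186, 219, 141 and 207 CPM. The labelled knockout itself gave log2 fold changes of Ppara of -0.36 in HF males, -0.38 in HF females and -0.62 in HFCF females, and of 0.18 in HFCF males and 0.06 in LF females, with edgeR adjusted p-values of 0.102, 0.602, 0.553, 0.456 and 0.9996.

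Several of the low Ppara values were in libraries with low length slopes, and others were not. The lowest Ppara level of all, 59.8 CPM, was in replicate 1 of the female HFCF labelled knockouts, whose slope of -0.26 was also the lowest of all. LF labelled knockouts 4 and 1 had 80.4 and 108 CPM at slopes of -0.13 and -0.11, and LF control 1 had 82.9 CPM at -0.09. In HF males, labelled knockouts 3 and 4, with slopes of -0.09 and -0.08, had the lowest Ppara of their group (150 and 128 CPM). Female HFCF labelled knockout 4 had 119 CPM at a slope of 0.01 and male HFCF control 3 had 137 CPM at 0.03, while female HF control 2 had 212 CPM at -0.08. The HFCF and HF control males of the called difference had slopes of -0.01 to 0.08 (median 0.049) and 0.00 to 0.04 (median 0.030). Ncor1 (a longer gene) was low in the same female libraries, at 73.6, 94.4, 99.5 and 89.5 CPM. The part of the slope in these results was not tested.

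**Figure D3:**
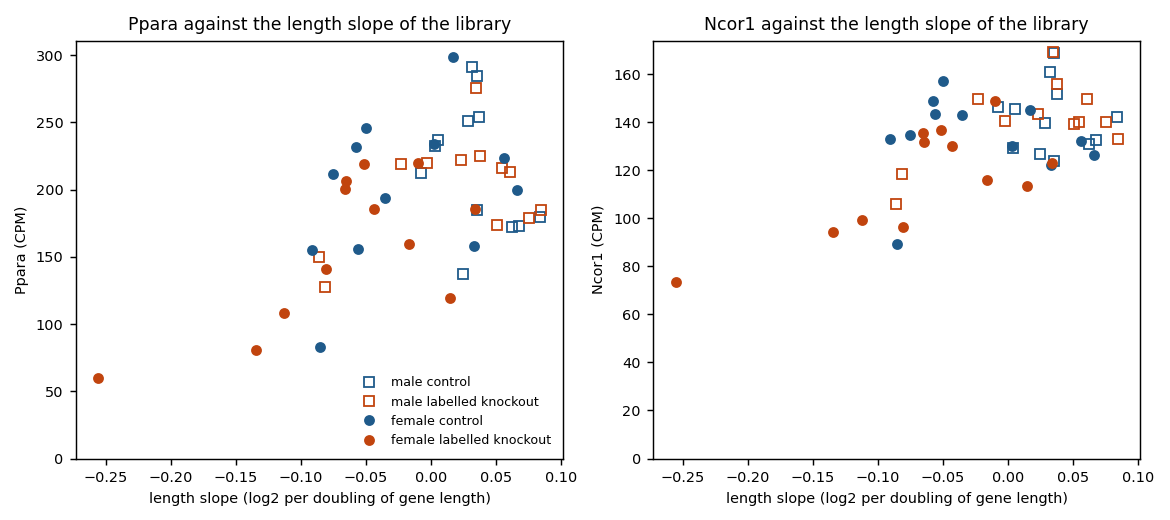
Ppara and Ncor1 levels (CPM, axes from 0) against the library's length slope (log2 per doubling of gene length), with 1 point per liver, squares for males, circles for females, blue for controls and red for labelled knockouts. The leftmost point, female HFCF labelled knockout 1 at -0.26, has the lowest Ppara (59.8 CPM) and the lowest Ncor1 (73.6 CPM) of the 48 livers.

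Among the genes most like Ppara over the 48 libraries were the member Ncor1 (r = 0.899) and Pdpr (r = 0.899), and on deviations from group means the values were 0.906 and 0.916. Libraries of low slope are among the points that these correlations share.

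Established PPARα targets were counted on a list of 24. In the labelled knockout of HF males 18.5% of all genes tested were called. Of the targets 13 of 23 tested fell there and 0 rose, with a median log2 fold change of -0.47 against 0.00 over all genes tested. The leading ones were Vnn1 (-1.67, edgeR adjusted p = 5.51e-10), a pantetheinase, Acaa1b (-1.28, edgeR adjusted p = 5.39e-08), a peroxisomal thiolase, and Pex11a (-1.21, edgeR adjusted p = 3.41e-07), a peroxisome division protein. In HFCF males, where 2.21% of all genes were called, the same 3 genes were the ones called of 24 (Vnn1 -1.33, Acaa1b -0.87 and Pex11a -0.67). In HFCF females Vnn1 alone fell (-1.03, edgeR adjusted p = 0.0422). It was one of the 8 genes called in that comparison, a count that changed with single libraries left out, as given above. In HF females 0 of 23 were called by edgeR, where 0% of all genes were, and the median was -0.37. At an unadjusted p under 0.05 were 13 of the 23 and 1135 of the 14128 genes tested. HFCF against HF lowered 8 and raised 1 of 24 in control males, where Cyp4a14, a fatty acid hydroxylase, fell by 1.15 on the log2 scale. In control females the same contrast lowered 10 and raised 3 of 24, with Acadl, an acyl-CoA dehydrogenase, at -0.57. In labelled-knockout males it moved 8 up and 8 down of 23, with Ehhadh (0.72), Ucp2 (0.95) and Acot2 (1.25) among those that rose. Of all genes tested, HFCF against HF moved 22.3% in control males, 30.8% in control females and 41.7% in labelled-knockout males.

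The balance of the PPAR genes also shifted between groups. The ratio of Pparg to Ppara per kb was 0.0969 ± 0.0305 in LF control females (SD, n = 4), 0.0992 ± 0.0214 in HF control females and 0.156 ± 0.037 in HFCF control females. It was 0.516 ± 0.224 in HFCF labelled-knockout females, where the 4 livers ran from 0.365 to 0.850. In males it was 0.242 ± 0.051 in HFCF controls and 0.372 ± 0.055 in HFCF labelled knockouts (SD, n = 6 each). The highest female value came with the low Ppara of replicate 1 on one side and a raised Pparg in all 4 livers on the other.

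Ppard (ENSMUSG00000002250, chr17:28232700-28301474, plus strand), the broadly expressed PPAR, varied least of the 3 PPAR genes. Its group means lay between 11.1 and 14.8 CPM, and it rested on 149 to 347 reads per library. It rose on HFCF against HF in labelled-knockout males, from 9.37 to 12.1 CPM (median 11.3) to 12.4 to 13.3 CPM (median 12.8). These groups did not overlap, the log2 fold change was 0.21 ± 0.08 (SE, n = 6 and 6) and the edgeR adjusted p was 0.0334. Leaving out HF labelled knockout 2, 4 or 5 or HFCF labelled knockout 1, 3 or 5 ended the call (edgeR adjusted p up to 0.0726). It also ended without a filter on low counts (0.108) and with all groups in one fit (0.103). Ppard spans 7514 bases of gene length, and the length slopes of these groups did not overlap either. They were -0.086 to 0.035 on HF and 0.038 to 0.085 on HFCF, and their part in the Ppard values was not tested. The genes most like Ppard were Ahdc1 (r = 0.573), Wdr78 (r = 0.526) and the glucose transporter Slc2a1 (r = 0.521) over 48 libraries, and 0.489, 0.461 and 0.471 on deviations from group means.

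Rxra (ENSMUSG00000015846, chr2:27676440-27762957, plus strand), the main RXR of hepatocytes, fell on the HFCF diet against HF in both female genotypes and in labelled-knockout males. Control females had 539, 696, 582 and 732 CPM on HF and 468, 450, 535 and 397 CPM on HFCF. The highest HFCF liver lay just below the lowest HF liver, and the log2 fold change was -0.44 ± 0.13 (SE, edgeR adjusted p = 0.0290). Labelled-knockout females had 691, 632, 557 and 687 CPM on HF and 474, 414, 437 and 356 CPM on HFCF, again without overlap, with a log2 fold change of -0.61 ± 0.12 (SE, edgeR adjusted p = 0.0118). Labelled-knockout males went from 571 to 806 CPM (median 679) on HF to 449 to 538 CPM (median 520) on HFCF, a log2 fold change of -0.44 ± 0.08 (SE, edgeR adjusted p = 0.000571). The last 2 calls held with any 1 library left out. The call in control females ended without HF control 2 or 4 or HFCF control 1, 2 or 5 (edgeR adjusted p up to 0.0807).

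In control males Rxra overlapped between diets, at 542 to 592 CPM on HF and 438 to 603 CPM on HFCF. The log2 fold change of -0.18 was not called by edgeR, whereas the authors' deposited table lists -0.19 with an adjusted p of 0.0325. HF males were also where the labelled knockout differed from the control in Rxra. The controls ran from 542 to 592 CPM (median 577) and the labelled knockouts from 571 to 806 CPM (median 679). Of the 6 labelled knockouts 5 lay above all controls and replicate 4 lay among them. Rxra rose by 0.28 ± 0.08 (log2, SE, edgeR adjusted p = 0.0175), and the call held with any 1 library left out but ended with all groups in one fit (adjusted p = 0.0719). On HFCF the same difference in males was 0.04, and the interaction was -0.26 ± 0.11 (SE, edgeR adjusted p = 0.213). Hepatocyte markers moved with Rxra in the called male comparisons: their summed level was 86930 to 101800 CPM in HF labelled-knockout males, 59620 to 82970 CPM in HF control males and 52840 to 63140 CPM in HFCF labelled-knockout males. In control males, where Rxra was not called by edgeR, 4 of 7 hepatocyte markers also fell on HFCF, to a summed level of 37690 to 60470 CPM. Their part in the Rxra values was not tested.

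Rxrb (ENSMUSG00000039656, chr17:34031812-34038393, plus strand), the ubiquitous form, had the lowest ratio of highest to lowest group mean (1.24) of the 10 members, with means from 39.4 to 48.8 CPM. It fell on HFCF against LF in control females, from 48.5, 43.5, 50.9 and 52.4 CPM to 39.7, 40.9, 38.3 and 45.7 CPM. HFCF control 5 lay among the LF values. The log2 fold change was -0.26 ± 0.09 (SE, edgeR adjusted p = 0.0369), and the call ended without LF control 1, 3 or 4 or HFCF control 1, 2 or 3 (edgeR adjusted p up to 0.136) and without a filter on low counts (0.0780). In the same comparison Rxra fell by 0.43 on the log2 scale (± 0.14 SE, edgeR adjusted p = 0.0334), a call that ended without LF control 3 or 4 or HFCF control 1, 2 or 5 (edgeR adjusted p up to 0.109).

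Rxrg (ENSMUSG00000015843, chr1:167598384-167639623, plus strand) rested on 117 to 265 reads per library. HF control females held a tight level of 12.3, 12.6, 12.1 and 12.0 CPM, against 8.68, 7.80, 9.98 and 10.7 CPM in HFCF control females and 8.01 to 10.7 CPM (median 9.92) in HF control males. Neither of these 2 groups overlapped with the HF control females. Rxrg fell on HFCF in control females (log2 fold change -0.38 ± 0.12, SE, edgeR adjusted p = 0.0434) and was lower in HF control males than females (-0.34 ± 0.09, edgeR adjusted p = 0.0285), 2 comparisons that share the HF control females. In control males HFCF against HF gave -0.29 ± 0.10 (SE, edgeR adjusted p = 0.0426). These calls were fragile. They ended in 5 of 8, 4 of 10 and 9 of 12 omissions of 1 library, with edgeR adjusted p-values up to 0.114, 0.0853 and 0.0960, and all 3 ended without a filter on low counts and with all groups in one fit. The omissions that ended them were HF control 2, 3 or 4 or HFCF control 1 or 2 in the first, male HF control 5 or female HF control 2, 3 or 4 in the second, and any library other than HF control 1 and HFCF controls 1 and 2 in the third. Genes most like Rxrg were Tmem53 (r = 0.778), Hdac6 (r = 0.763) and Cmbl (r = 0.759) over 48 libraries, and 0.643, 0.727 and 0.629 on deviations from group means.

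Rxra and Rxrg both fell on the HFCF diet in control females. Stretches before their second RefSeq starts (GRCm38.p6, plus strand) are shown because these windows hold a nuclear receptor half-site. The windows of their first starts hold none, and counts per gene do not tell the starts apart. Capitals mark the half-site AGGTCA on either strand, so that TGACCT is the same half-site on the minus strand.
Rxra second start, chr2:27709192-27709291: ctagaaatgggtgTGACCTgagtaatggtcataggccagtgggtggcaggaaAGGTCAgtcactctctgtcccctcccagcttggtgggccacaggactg
Rxrg second start, chr1:167618165-167618264: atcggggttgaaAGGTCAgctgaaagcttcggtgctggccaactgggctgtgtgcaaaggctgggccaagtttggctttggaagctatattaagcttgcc
With the Pparg windows above these made 4 of the 16 member windows with a half-site, against 14.0% of all windows.

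Other nuclear receptors that pair with RXR were counted on a list of 11, of which 10 could be tested. On HFCF against HF, 4 fell in control females, 4 in control males (with 1 higher), 3 in labelled-knockout males (1 higher) and 2 in labelled-knockout females (1 higher). Of all genes tested 30.8%, 22.3%, 41.7% and 14.5% were called in these comparisons. Medians were -0.21, -0.14, -0.19 and -0.22, against -0.02, 0.01, -0.02 and -0.01 over all genes tested. Nr1i3, the xenobiotic receptor CAR, fell in each, by 1.35, 0.97, 0.82 and 1.47 on the log2 scale (edgeR adjusted p from 6.34e-05 to 0.00694), and Nr1h4, the bile acid receptor FXR, was among the leading genes in control females (-0.62), control males (-0.46) and labelled-knockout females (-0.45). The labelled knockout moved 4 of 10 in HF males, where 18.5% of all genes were called. Among them were Nr1h3 (LXRα, 0.26), Nr1i3 (0.26) and Nr1i2 (the xenobiotic receptor PXR, -0.27). It moved 0 of 10 in each of the other 4 labelled-knockout comparisons by edgeR, where 2 (HFCF males) or 0 (females) had an unadjusted p under 0.05. Of all genes tested 2.21% were called there in HFCF males, 0.0534% in HFCF females and 0% in HF and LF females.

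Ppargc1a (ENSMUSG00000029167, chr5:51454250-51567726, minus strand), the coactivator PGC-1α of gluconeogenesis and mitochondrial biogenesis, fell on HFCF against HF in control males. The HF controls ran from 14.0 to 15.7 CPM (median 14.4) and the HFCF controls from 8.55 to 11.8 CPM (median 11.04), with no overlap. The log2 fold change was -0.44 ± 0.08 (SE, n = 6 and 6, edgeR adjusted p = 0.00283) and held with any 1 library left out. In labelled-knockout males the fold change was -0.19 and was not called. The highest level of all 48 livers, 29.5 CPM, was in LF control female 1, and the other 3 LF controls were at 18.7, 16.9 and 13.7 CPM. HFCF control females were at 12.3, 13.7, 15.5 and 9.13 CPM, and the log2 fold change of HFCF against LF, -0.66, did not pass the test. In the labelled knockouts LF livers (18.5, 21.04, 20.9 and 15.4 CPM) did not overlap with HFCF livers (10.6, 14.8, 14.9 and 9.95 CPM), but -0.57 was not called. Genes most like Ppargc1a were Klhl3 (r = 0.780), Slc35e2 (r = 0.779) and Cyth1 (r = 0.774) over 48 libraries, and 0.456, 0.370 and 0.351 on deviations from group means.

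The stretch before the RefSeq start of Ppargc1a (GRCm38.p6, minus strand) is shown because the cAMP response element is the best known control element of this gene. Capitals mark its half-site TGACG, read here on the opposite strand as CGTCA.
Ppargc1a, chr5:51567746-51567805: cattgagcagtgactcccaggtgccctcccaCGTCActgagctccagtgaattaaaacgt
TGACG occurred in 17.8% of all windows of 250 bases and in 3 of the 16 member windows. The full palindrome TGACGTCA, which contains the half-site on each strand, occurred in 1.55% of all windows and in 0 of the members' windows.

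Ppargc1b (ENSMUSG00000033871, chr18:61298136-61400431, minus strand), the coactivator PGC-1β of mitochondrial and lipogenic genes, rested on 73 to 252 reads per library. It fell on HFCF in several comparisons. Control males had 8.50 to 12.1 CPM (median 10.1) on HF and 5.98 to 9.35 CPM (median 6.44) on HFCF, where only replicate 1 of the HFCF controls reached into the HF range. The log2 fold change was -0.56 ± 0.12 (SE, edgeR adjusted p = 0.00565), held with any 1 library left out. Control females had 13.3, 9.89, 10.8 and 11.7 CPM on LF and 8.83, 7.40, 8.10 and 6.36 CPM on HFCF, with no overlap, and the log2 fold change was -0.59 ± 0.15 (SE, edgeR adjusted p = 0.0112), also held with any 1 library left out.

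In labelled-knockout females Ppargc1b was at 10.7, 9.09, 8.83 and 9.84 CPM on LF, 10.6, 11.2, 7.79 and 12.2 CPM on HF, and 5.30, 7.11, 7.28 and 4.51 CPM on HFCF. All 4 HFCF livers lay below all LF and all HF livers. Ppargc1b fell by 0.77 ± 0.20 against HF (log2, SE, edgeR adjusted p = 0.0288) and by 0.64 ± 0.19 against LF (edgeR adjusted p = 0.0483), 2 comparisons that share the HFCF labelled knockouts. The first call ended without HF labelled knockout 1, 2 or 4 or HFCF labelled knockout 4 (edgeR adjusted p up to 0.0845). The second ended without any library other than HFCF labelled knockout 1 (up to 0.147). In labelled-knockout males the difference of HFCF from HF was -0.24 and was not called.

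A list of 8 gluconeogenic and mitochondrial genes known to depend on PGC-1 coactivators was counted beside these. On HFCF against LF in control females, where 35.2% of all genes were called, 3 of 8 fell and 0 rose: G6pc (-1.47), the glucose-6-phosphatase catalytic subunit, Pck1 (-1.20), the cytosolic PEP carboxykinase, and Tfam (-0.44), the mitochondrial transcription factor, with edgeR adjusted p-values from 0.000320 to 0.0192. On HFCF against HF, 3 fell in control females, 1 in control males (Tfam, -0.28), 2 in labelled-knockout males and 1 in labelled-knockout females (Pck1, -0.79), and 1 rose in labelled-knockout males (Cs, citrate synthase, 0.27). Of all genes tested 30.8%, 22.3%, 41.7% and 14.5% were called in these groups, in the order named. The labelled knockout moved 1 of 8 in HF males (Cs, -0.24), where 18.5% of all genes were called. It moved 0 of 8 in the other 4 comparisons by edgeR, where 0 to 3 had an unadjusted p under 0.05. Of all genes tested 2.21% were called there in HFCF males, 0.0534% in HFCF females and 0% in HF and LF females.

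Ncor1 (ENSMUSG00000018501, chr11:62316426-62458541, minus strand), the scaffold that brings HDAC3 to unliganded receptors, was called by edgeR in none of the 17 pairwise comparisons, and by the DESeq2 Wald test between the sexes among HFCF labelled knockouts. Its group means ran from 106.5 to 149 CPM. HF control females (145, 135, 149 and 157 CPM) did not overlap with HFCF control females (132, 126, 130 and 122 CPM), and the log2 fold change was -0.18. Among HFCF labelled knockouts the 6 males (133 to 156 CPM) lay above the 4 females (73.6, 123, 116 and 113 CPM), and the log2 fold change of 0.42 was not called, with the lowest value in the female of lowest length slope. Ncor1 overlaps Pigl, Ttc19 and Gm12276 on the other strand, and the libraries were not strand specific, so reads of the overlaps cannot be told apart. Ttc19 had a median of 335 reads and Ncor1 of 2416.

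Nrip1 (ENSMUSG00000048490, chr16:76287400-76373827, minus strand), whose product RIP140 represses oxidative metabolism genes in fat and liver, rose on HFCF. In labelled-knockout males it ran from 18.6 to 24.5 CPM (median 22.3) on HF and from 26.2 to 31.5 CPM (median 27.1) on HFCF. All 6 HFCF livers lay above all 6 HF livers, and the log2 fold change was 0.35 ± 0.07 (SE, edgeR adjusted p = 0.00177), held with any 1 library left out. In control males the same difference was 0.02, with HF livers from 22.2 to 33.3 CPM and HFCF livers from 21.2 to 31.5 CPM, and the interaction of diet and labelled knockout was 0.32 ± 0.13 (SE, edgeR adjusted p = 0.207). Control females had 18.1, 22.2, 23.1 and 19.7 CPM on LF and 28.9, 28.0, 23.4 and 28.7 CPM on HFCF. HFCF control 3 lay just above the highest LF control. Nrip1 rose by 0.38 ± 0.10 on the log2 scale (SE, edgeR adjusted p = 0.0162), and of the omissions of 1 library that of HFCF control 1 ended the call (0.0509). Nrip1 is a long gene (11457 bases), and the length slopes also separated the groups of both called rises. In labelled-knockout males they were -0.086 to 0.035 on HF and 0.038 to 0.085 on HFCF. In control females they were -0.091 to -0.036 on LF and 0.003 to 0.066 on HFCF. The part of the slope in these rises was not tested. HF female labelled knockouts, at 18.9, 18.0, 16.8 and 18.0 CPM, lay below all 4 HF controls, at 25.5, 19.5, 22.4 and 23.2 CPM, and the log2 fold change of -0.32 ± 0.10 (SE) was not called (edgeR adjusted p = 0.568).

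Other PPAR and RXR coregulators were counted on a list of 18. The labelled knockout moved 0 of 18 in each of the 5 comparisons by edgeR, where 0 to 3 had an unadjusted p under 0.05. Of all genes tested 18.5% were called in HF males, 2.21% in HFCF males, 0.0534% in HFCF females and 0% in HF and LF females. On HFCF against HF, Lpin1, a phosphatidate phosphatase that also coactivates PPARα, fell in control males (-1.22), control females (-0.84), labelled-knockout males (-0.99) and labelled-knockout females (-0.95), with edgeR adjusted p-values from 0.000473 to 0.0454. Prdm16, the brown fat coregulator, rose in control males (1.36), labelled-knockout males (1.70) and control females (1.97). The counts were 3 higher and 1 lower in each male genotype, 2 higher and 1 lower in control females, and 0 higher and 2 lower in labelled-knockout females, where Med1 (-0.53), a Mediator subunit that binds nuclear receptors, was the other. Of all genes tested 22.3% were called in control males, 41.7% in labelled-knockout males, 30.8% in control females and 14.5% in labelled-knockout females.

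Across the labelled-knockout comparisons the members called were few. In HF males 1 of 10 was called (Rxra), where 18.5% of all genes tested were. In HFCF males 1 of 10 was called (Pparg) against 2.21% of all genes, and in HFCF females 1 of 10 (Pparg) against 0.0534%. The genes called in HFCF males numbered 324, 1052 without HFCF control 1 and 185 to 388 without any other 1 library, and Pparg was among them in each. In HF females 0 of 10 were called by edgeR against 0% of all genes, and by the DESeq2 Wald test also 0. At an unadjusted p under 0.05 were 3 members (Nrip1, Pparg and Ppara) and 1135 of the 14128 genes tested. In LF females 0 of 10 were called against 0% of all genes, with 0 at an unadjusted p under 0.05, and by the DESeq2 Wald test also 0. Groups did not overlap for 1 member in HFCF males (Pparg, 2.35% of all genes), 1 in HFCF females (Pparg, 5.59%) and 1 in HF females (Nrip1, 5.44%). They overlapped for all 10 members in HF males and LF females, where 7.88% and 1.64% of all genes did not overlap. In none of the 7 interaction tests was a member called by edgeR. In the male test of labelled knockout by diet, 1.56% of all genes were called. There 6 members had an unadjusted p under 0.05, as did 2574 of the 15096 genes tested. In the test of labelled knockout by sex on HFCF, 4 members did, as did 1515 of 15673 genes (0% called). In the tests of HFCF against HF by sex, 1 member did in controls, as did 2561 of 15491 genes (0.00646% called). In labelled knockouts 1 member did, as did 1829 of 15400 genes (0.0130% called). In the other 3 tests 0 members had an unadjusted p under 0.05, and 0% of all genes were called.

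**Figure D4:**
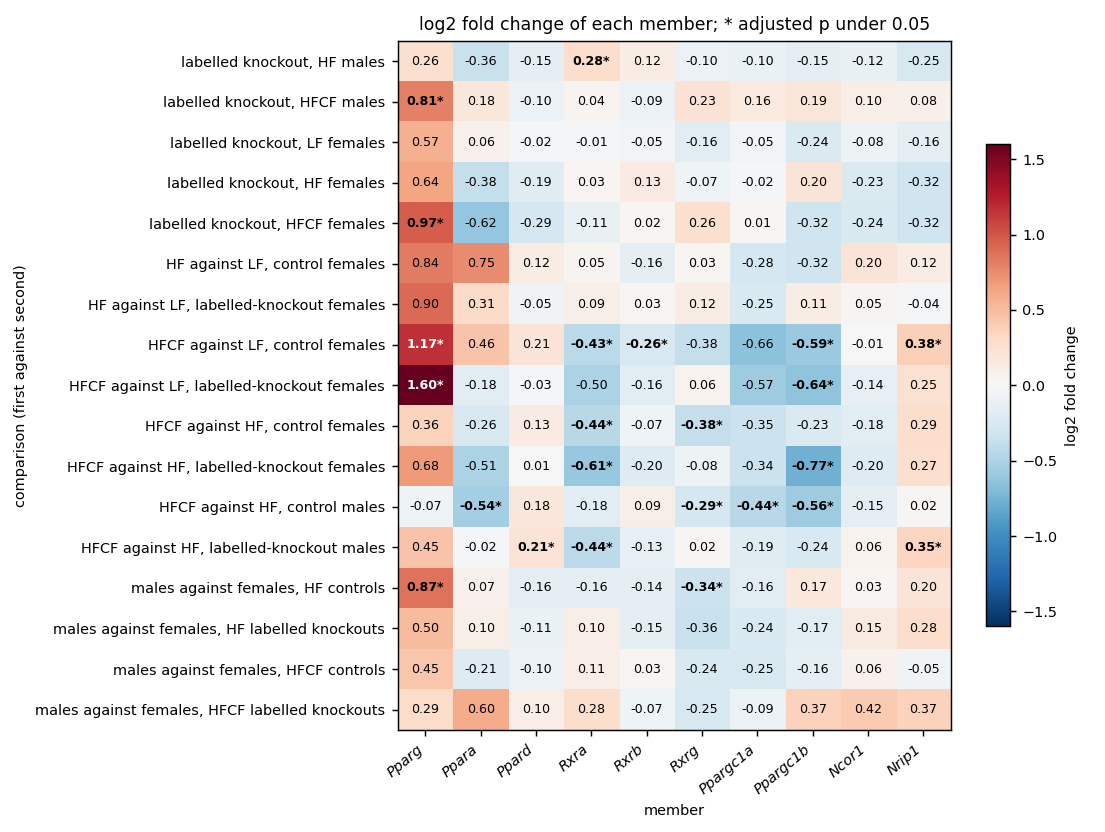
log2 fold change of each member (columns) in the 17 pairwise comparisons (rows, first group against second), coloured from blue (lower) to red (higher), with an asterisk where the edgeR adjusted p was under 0.05. Pparg carries the largest positive values, up to 1.60, and Ncor1 has no asterisk in any row.

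The diet comparisons held more calls, among many more called genes. On HFCF against LF in control females 5 of 10 members were called (Pparg and Nrip1 higher, Ppargc1b, Rxra and Rxrb lower), where 35.2% of all genes were, and in labelled-knockout females 2 of 10 against 12.0%. On HFCF against HF the counts were 2 of 10 in control females (30.8% of all genes), 2 in labelled-knockout females (14.5%), 4 in control males (22.3%) and 3 in labelled-knockout males (41.7%). On HF against LF 0 of 10 were called by edgeR in control females (0.696% of all genes) and 0 in labelled-knockout females (0.155%), with 2 and 1 at an unadjusted p under 0.05, and the DESeq2 Wald test called 2 (Ppara and Pparg) and 1 (Pparg). Between the sexes 2 of 10 were called among HF controls (18.1% of all genes), and 0 by edgeR among HF labelled knockouts (14.3%), HFCF controls (2.63%) and HFCF labelled knockouts (5.40%), with 4, 1 and 6 at an unadjusted p under 0.05 and 2, 1 and 1 called by the DESeq2 Wald test. At an unadjusted p under 0.05 on HF against LF were 2314 of 14216 genes tested in control females and 1902 of 14214 in labelled-knockout females. Between the sexes they were 4206 of 14260 (HF labelled knockouts), 2269 of 15054 (HFCF controls) and 3480 of 15017 (HFCF labelled knockouts). Several of these comparisons share groups of livers. The members whose groups did not overlap numbered 3 in control females (33.8% of all genes) and 3 in labelled-knockout females (17.1%) on HFCF against LF, and 3 in control females (29.6%), 3 in labelled-knockout females (19.4%), 2 in control males (4.47%) and 3 in labelled-knockout males (18.8%) on HFCF against HF. On HF against LF they were 1 in control females (Ppara, 10.0%) and 0 in labelled-knockout females (8.22%). Between the sexes they were 2 among HF controls (12.4%), 0 among HF labelled knockouts (12.6%), 1 among HFCF controls (5.56%) and 1 among HFCF labelled knockouts (10.0%).

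Markers of other cell types moved with the HFCF diet in the same livers. All 5 cholangiocyte markers were higher in each of the 6 HFCF comparisons with HF or LF, and their summed level was 158 to 680 CPM in the 20 HFCF livers and 43.5 to 276 CPM in the HF and LF livers. Of 9 stellate cell markers 3 to 8 were higher, and of 11 macrophage markers 3 to 8, with 2 lower in labelled-knockout males against HF and 1 lower in labelled-knockout females against LF. Of 7 endothelial markers 0 to 5 were higher, with 1 lower in control females against LF. All 5 blood cell markers were lower in labelled-knockout males on HFCF against HF (median log2 fold change -1.46). Of 7 hepatocyte markers 0 to 6 were lower, with a summed level of 37690 to 60470 CPM in HFCF control males against 59620 to 82970 CPM in HF control males. No defining marker of the stellate, macrophage or cholangiocyte lists was at 0 in all libraries. The part of these shifts in the values of the members was not tested.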

How the data were processed

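Whole-liver RNA-seq read counts per gene were used as deposited, without normalization per the file headers, in 11 tables that were joined into 1 matrix of 29221 genes and 48 libraries (0 of 1341082 repeated values differed, and genes missing from a table were set to 0). STAR 2.6.1, HTSeq 0.6.1, DESeq2 and the builds GRCm38 and mm10 are named per the submitters' processing notes without their roles, and the annotation release is not given in the sources used here. Libraries were not strand specific per the labels' protocols. Log2 fold changes and p-values that the authors deposited are quoted only where named. The series text and the labels differ in the animal number of 1 library, replicate 2 of the female LF labelled knockouts.

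CPM were computed with TMM factors over the 48 libraries. Each pair of groups was fitted alone with edgeR 4.0.16 in R 4.3.3 (filterByExpr, quasi-likelihood F test, Benjamini-Hochberg adjustment over all genes tested, call at an adjusted p under 0.05), and the steps were tested on simulated data. The log2 CPM used for correlations and for the permutation test of Pparg had a pseudocount of 0.5. Standard errors and interactions come from the same fits. Fold changes are first group against second, and interactions are positive where the difference was larger on the first-named diet or in males. Gene lengths and coordinates are those of the deposited tables, and promoter windows are from RefSeq on GRCm38.p6 and covered 9 of the 10 members. Alternatives were DESeq2 1.42.0 size factors and its Wald test, keeping genes of low count, a single fit of all groups, a block by replicate number, and leaving out each library. All 10 members are named in each comparison, of each gene list the 3 called genes of smallest p, and for 5 members the 3 genes of most similar pattern. Some genes that this rule names are not reported here. The members and lists were chosen with earlier results of these data known, and the lists are not independent support.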

Additional observations from a re-analysis of the deposited data

Results flagged for a closer look

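Among the 100 groups of libraries examined (10 members in 10 groups), 7 had a highest or lowest liver set apart from the others by a gap larger than Dixon's 95% limit, where chance gives about 1 in 20. Rxra was lowest in male HFCF labelled knockout 3, at 449.1 CPM. Rxrb was highest in female HFCF labelled knockout 1, at 52.45 CPM, the library of lowest length slope. Rxrg was highest in male HFCF labelled knockout 6, at 11.52 CPM. Ppargc1a was highest in male HF control 2, at 15.73 CPM, in a group whose other livers lay between 14.0 and 14.6 CPM. Ppargc1b was highest in male HFCF control 1, at 9.345 CPM, the liver that reached into the HF range. Ncor1 was lowest in female HF labelled knockout 3, at 96.2 CPM, and Nrip1 was lowest in female HFCF control 3, at 23.42 CPM.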

How the results depend on the processing

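No called value of a member reversed direction under the alternatives run. Leaving out 1 library at a time, the number of members called ran from 0 to 4 (HFCF against HF, control females), 3 to 6 (control males), 1 to 5 (labelled-knockout females) and 2 to 4 (labelled-knockout males), from 2 to 5 and 1 to 5 (HFCF against LF, control and labelled-knockout females), from 1 to 3 (labelled knockout, HF males) and 0 to 1 (HFCF females), and from 1 to 4, 0 to 1, 0 to 1 and 0 to 3 between the sexes (HF controls, HF labelled knockouts, HFCF controls and HFCF labelled knockouts). With the DESeq2 Wald test the counts became 2 and 1 (HF against LF, control and labelled-knockout females), 4 (HFCF against LF, labelled-knockout females), and 2, 1 and 1 between the sexes (HF labelled knockouts, HFCF controls, HFCF labelled knockouts). With all groups in one fit they became 1 and 1 (HF against LF), 4 (HFCF against LF, labelled-knockout females), 1 (HFCF against HF, control females), 0 (labelled knockout, HF males), 1 (sexes, HF controls) and 2 (sexes, HFCF labelled knockouts). Without a filter on low counts they became 1 (HFCF against HF, control females) and 1 (sexes, HF controls). Smaller changes of the counts are not listed. Without that filter Rxrb (HFCF against LF, control females) also lost its call. Rxrg (control males) and Ppard (labelled-knockout males) on HFCF against HF lost theirs without the filter and with all groups in one fit. The causes were not tested.

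With the replicate number as a block, the count of members called fell to 0 (HFCF against HF, control females), 1 (HFCF against LF, control females) and 0 (labelled knockout, HFCF females, where Pparg had an adjusted p of 0.709 and 0 genes were called in all). It also ended the calls of Ppargc1b in labelled-knockout females (adjusted p = 0.0752 against HF, 0.0846 against LF), Ppard in labelled-knockout males (0.0615) and Rxrg in control males (0.0823); Nrip1 in control females had 0.166. The numbers did not show a pairing: correlations of same-numbered deviations reached as low as -0.275, and in no comparison did every pair exceed 0.1. The difference of Pparg in mean log2 CPM ran from 0.0511 to 0.400 in HF males with 1 library left out, and passed the threshold without labelled knockout 6. That omission left only labelled knockouts above every control, so the unadjusted permutation p was fixed at its smallest possible value. No block was fitted for the comparisons of sexes. The median reads per library were lowest for Ppargc1b (153), Rxrg (171), Ppard (219) and Ppargc1a (250).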
